A study of Mus musculus with 2 samples.

Results

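Levels of 8 genes of the PPAR-alpha and fatty acid oxidation programme are described here: Ppara, Cyp4a10, Cyp4a14, Hacl1, Ehhadh, Acsl1, Cpt1a and Acot1. They were taken by symbol from the 32286 genes of the count table, and all 8 were found. The data were RNA counts of single nuclei from mouse liver that was regrowing after surgery, in 2 libraries, 1 labelled Cox10-/- and 1 labelled wild-type. Cox10 encodes an enzyme of heme A synthesis, which cytochrome c oxidase (respiratory complex IV) needs. Per the labels' protocols, mice with a floxed Cox10 allele received AAV8-Cre or AAV8-GFP, adeno-associated viruses that mainly infect hepatocytes, and 70% of the liver was removed 4 weeks later. The labels do not say which virus each animal received, and age, sex and strain are not among them. The protocol places dissection 4 days after surgery and the sample characteristics 4 weeks after it, so how far regrowth had come is unclear.

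PPAR-alpha is a ligand-activated nuclear receptor that is abundant in hepatocytes and binds DNA with a retinoid X receptor partner. Fatty acids and their derivatives activate it, and its best known liver targets are the genes of fatty acid uptake, activation and oxidation that are raised in fasting. Long-chain fatty acids are first joined to coenzyme A, then either carried into mitochondria on carnitine or shortened in peroxisomes, while cytochromes of the Cyp4a family oxidise the far end of the chain (omega-oxidation). Branched chains are first cut by 1 carbon in peroxisomes (alpha-oxidation).

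With 1 library per group no test was possible. All ratios describe these libraries, and the 95% intervals in parentheses cover counting error only. Levels are UMIs (unique molecular identifiers, 1 per captured transcript) of a gene, summed over a group of nuclei and put on the usual CPM scale, on which every group has the same total. The deposited libraries held 5167 Cox10-/- nuclei with a median of 2291 UMIs and 5448 wild-type nuclei with a median of 2853.5 UMIs, and shared 7 barcodes. After limits of at least 500 UMIs, 300 genes and at most 10% mitochondrially encoded UMIs, 3136 Cox10-/- and 1542 wild-type nuclei were kept, of which 1171 and 1502 were hepatocyte-like, with medians of 2663 and 4415 UMIs. The hepatocyte-like nuclei of the libraries clustered almost wholly apart: clusters 2, 5 and 9 held 632, 453 and 64 Cox10-/- nuclei with 5, 0 and 0 wild-type nuclei, and clusters 1, 4 and 7 held 7, 3 and 1 Cox10-/- nuclei with 793, 562 and 139 wild-type nuclei. Mitochondrially encoded UMIs had a median of 5.68% in these Cox10-/- and 7.85% in these wild-type nuclei, and the part of this difference in the results was not tested beyond another filter. The Cox10-/- nuclei included a shallow cluster of 453 (median 1129 UMIs), led by genes such as Saa1, Lrg1 and Hpx, and holding 0 wild-type nuclei. Without it, the deeper 718 Cox10-/- nuclei had a median of 4362.5 UMIs. Cox10 itself stood at 43.3 CPM in hepatocyte-like nuclei of the Cox10-/- library and 35.7 CPM in those of the wild-type library, but a 3' tag cannot check a deletion of unstated position. RNA of plasma protein genes was present in all classes of nuclei: Alb was at 15810 CPM in endothelial-like nuclei and 16160 CPM in hepatocyte-like nuclei of the Cox10-/- library.

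A floor for each gene was read from nuclei named as other cell types in the whole deposited table (2552 Cox10-/- and 107 wild-type nuclei). In the Cox10-/- library hepatocyte-like nuclei exceeded these nuclei 12.6-fold for Ppara (11.7 to 13.5), 3.49-fold for Acsl1, 3.27-fold for Cpt1a, 3.17-fold for Hacl1 and 2.67-fold for Cyp4a10 (1.86 to 3.87). For Ehhadh and Acot1 the ratios were 1.28 (1.06 to 1.54) and 1.29 (0.855 to 1.94), so most of their signal in Cox10-/- hepatocyte-like nuclei was at the level of the other cell types. In the wild-type library the ratios were 2.92 for Cyp4a10 (1.53 to 6.42), 1.97 for Ppara, 1.96 for Cpt1a, 1.77 for Acsl1, 1.67 for Hacl1 and 1.27 for Ehhadh (0.699 to 2.56). By a limit of 1.5-fold, 5 of 7 members with enough UMIs were higher and 0 lower in Cox10-/- hepatocyte-like nuclei, beside 21.3% and 36.3% of all genes, and 7 of 8 were higher and 0 lower in the wild-type ones, beside 29.0% and 23.7%. The 7 include the rare Cyp4a14 and Acot1. Their wild-type floor rests on few UMIs, as the 107 nuclei held 286814 UMIs of all genes, so these 2 calls are weak. Cps1, a hepatocyte gene, was at 1612 CPM in the other nuclei of the Cox10-/- library and at 4770 CPM in those of the wild-type library, so the floors of the libraries are not alike.

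**Figure D1:**
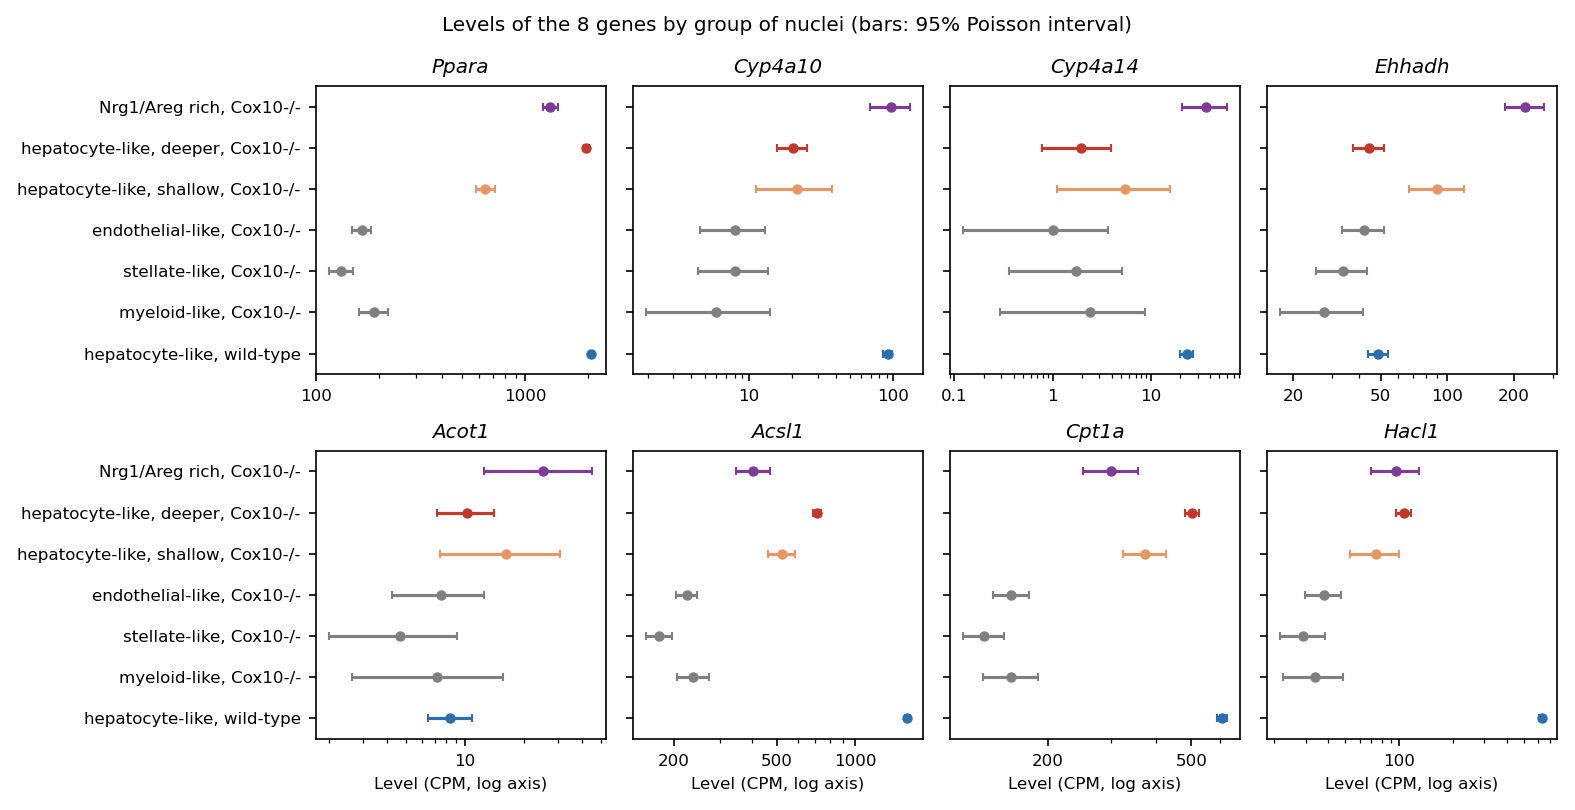
Level of each gene in CPM (log axis, points with 95% Poisson intervals) in the Nrg1 and Areg rich, deeper and shallow hepatocyte-like, endothelial-like, stellate-like and myeloid-like nuclei of the Cox10-/- library and in wild-type hepatocyte-like nuclei. Hacl1 was at 106 CPM in the deeper Cox10-/- and 628.6 CPM in the wild-type hepatocyte-like nuclei, and Ehhadh was highest in the Nrg1 and Areg rich nuclei at 224.4 CPM.

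Ppara, which encodes the receptor, lies on chromosome 15 (85734983 to 85802819, plus strand; all gene coordinates are mm10 with the GENCODE vM21 annotation). It was close in the 2 libraries, at 1791 CPM in Cox10-/- hepatocyte-like nuclei (1751 to 1832, 7483 UMIs) and 2069 CPM in wild-type ones (2035 to 2102, 14729 UMIs), a ratio of 0.866 (0.842 to 0.890). The shallow nuclei held it at 644.1 CPM, and without them the ratio was 0.951 (0.924 to 0.978). At least 1 Ppara UMI was found in 80.4% of Cox10-/- and 99.3% of wild-type hepatocyte-like nuclei, and in 26.1% of Cox10-/- endothelial-like nuclei (median 2267 UMIs). After each nucleus was thinned to 1000 UMIs, which left out 44 Cox10-/- and 1 wild-type hepatocyte-like nuclei with fewer, the shares were 69.1% (66.3 to 71.8) and 85.6% (83.7 to 87.4), with 15.1% in the endothelial-like nuclei. In the deeper Cox10-/- nuclei alone the thinned share was 84.9% (82.1 to 87.5), inside the wild-type interval. The receptor's transcript was thus nearly level between libraries, more closely so without the shallow nuclei.

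Both omega-hydroxylases were lower in Cox10-/- nuclei. Cyp4a10 and Cyp4a14, both classical PPAR-alpha targets in rodent liver, sit in a family cluster on chromosome 4: Cyp4a14 from 115486200 to 115496142 on the minus strand and Cyp4a10 from 115518264 to 115533649 on the plus strand. Cyp4a10 was at 20.4 CPM in Cox10-/- hepatocyte-like nuclei (16.3 to 25.2, 85 UMIs) and 91.7 CPM in wild-type ones (84.8 to 99.02, 653 UMIs), 4.51-fold lower (3.59 to 5.72). Cyp4a14 was at 2.39 CPM in Cox10-/- (1.15 to 4.402, 10 UMIs in 10 nuclei) and 23.3 CPM in wild-type nuclei (19.9 to 27.1, 166 UMIs in 120 nuclei), or 9.74-fold lower (5.17 to 20.7). Neither interval reaches the other library's level. Thinned to 1000 UMIs, Cyp4a10 was seen in 2.04% of Cox10-/- (1.30 to 3.05) and 7.995% of wild-type nuclei (6.67 to 9.48), with 0.605% of Cox10-/- endothelial-like nuclei. The unthinned shares were 6.49% and 26.7%, with 1.81% in endothelial-like nuclei. For Cyp4a14 the thinned shares were 0.444% (0.144 to 1.03) and 2.53% (1.80 to 3.46), from 0.854% and 7.99% unthinned, and the Cox10-/- endothelial-like nuclei had 0.242% unthinned (0.0293 to 0.871), so the Cox10-/- hepatocyte-like share overlaps background. In the last 500 bases of the transcripts, 6.0% of 50-base words of Cyp4a10 recur in Cyp4a31, and none of the other 7 genes shared such a word. Of the end words of Cyp4a32, 66.7% recur in Cyp4a10 or Cyp4a31. Cyp4a32, named after its value was seen, was at 156.6 CPM in Cox10-/- and 117.6 CPM in wild-type nuclei (ratio 1.33, 1.20 to 1.48). Only the ends of spliced transcripts were compared, and where the Cyp4a10 tags of these nuclei fall was not tested.

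Of the peroxisomal genes, Hacl1 was lower in Cox10-/- nuclei and Ehhadh was within 1.5-fold. Hacl1 encodes 2-hydroxyacyl-CoA lyase, which makes the chain-shortening cut of alpha-oxidation, and lies on chromosome 14 (31598730 to 31641286, minus strand). It was at 101.7 CPM in Cox10-/- hepatocyte-like nuclei (92.3 to 111.9, 425 UMIs) and 628.6 CPM in wild-type ones (610.3 to 647.3, 4476 UMIs), or 6.18-fold lower (5.59 to 6.84). At least 1 UMI was seen in 24.5% of Cox10-/- and 87.2% of wild-type nuclei, and after thinning in 8.87% (7.28 to 10.7) and 45.8% (43.2 to 48.3), with 3.75% (2.56 to 5.29) of Cox10-/- endothelial-like nuclei. Hacl1 was thus detected in a smaller share of Cox10-/- than of wild-type hepatocyte-like nuclei at equal depth, and it is among the 20 leading genes of wild-type clusters 1 and 4. In the deeper Cox10-/- nuclei alone it was at 106 CPM and 5.93-fold lower (5.34 to 6.60). The other cell types held Hacl1 at 32.1 CPM in the Cox10-/- and 376.6 CPM in the wild-type library.

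Ehhadh, the bifunctional enzyme of peroxisomal beta-oxidation and another classical PPAR-alpha target, lies on chromosome 16 (21761287 to 21787807, minus strand). It was at 50.3 CPM in Cox10-/- hepatocyte-like nuclei (43.7 to 57.6, 210 UMIs) and 48.6 CPM in wild-type ones (43.6 to 54.0, 346 UMIs), a ratio of 1.03 (0.867 to 1.23). As far as counting error goes, the interval leaves out a gap of 1.5-fold in either direction. The shallow and deeper Cox10-/- nuclei differed, at 90.2 CPM (67.0 to 118.9) and 44.2 CPM (37.6 to 51.6). Unthinned shares were 15.03% in Cox10-/- and 17.8% in wild-type nuclei. Thinned shares were 4.88% in Cox10-/- and 4.46% in wild-type nuclei, with 3.39% (2.26 to 4.86) in Cox10-/- endothelial-like nuclei. Detection was thus near background in the Cox10-/- library. None of the kept wild-type nuclei were endothelial-like, so the wild-type share has no such comparison.

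Of the genes that prepare chains for oxidation, Acsl1 was lower and Cpt1a was between the limits used here. Acsl1, the main long-chain acyl-CoA synthetase of liver, lies on chromosome 8 (46471037 to 46536051, plus strand). It was at 687.3 CPM in Cox10-/- hepatocyte-like nuclei (662.3 to 712.9, 2871 UMIs) and 1592 CPM in wild-type ones (1563 to 1622, 11335 UMIs), or 2.32-fold lower (2.22 to 2.41). At least 1 UMI was seen in 70.5% of Cox10-/- and 98.3% of wild-type nuclei. Its thinned share was 43.8% (40.9 to 46.8) in Cox10-/- and 74.4% (72.1 to 76.6) in wild-type nuclei, with 18.8% in Cox10-/- endothelial-like nuclei. Cpt1a, which makes the acylcarnitine that enters mitochondria and is the rate-limiting step of their beta-oxidation, lies on chromosome 19 (3322334 to 3385733, plus strand). It was at 485.2 CPM in Cox10-/- (464.3 to 506.8, 2027 UMIs) and 608.4 CPM in wild-type nuclei (590.4 to 626.8, 4332 UMIs), a ratio of 0.798 (0.756 to 0.841). Counting error does not cover that gap, but it is under 1.5-fold. The shares of nuclei with Cpt1a were 65.7% in Cox10-/- and 88.8% in wild-type nuclei, and 35.2% and 43.3% after thinning, with 15.1% in Cox10-/- endothelial-like nuclei. Acot1, a cytosolic acyl-CoA thioesterase that frees the fatty acid again, lies on chromosome 12 (84009490 to 84018371, plus strand). It was rare in both, at 11.01 CPM in Cox10-/- (8.06 to 14.7, 46 UMIs) and 8.43 CPM in wild-type nuclei (6.43 to 10.9, 60 UMIs), a ratio of 1.31 (0.870 to 1.95), and no difference was detectable at this depth.

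Counted together, 4 of the 8 genes were at least 1.5-fold lower in Cox10-/- hepatocyte-like nuclei (Cyp4a14, Hacl1, Cyp4a10 and Acsl1) and 0 were at least 1.5-fold higher. Among the 11453 genes with at least 20 UMIs over both libraries, 14.4% were lower and 18.7% higher by the same limit. The 8 genes were chosen with earlier results of these data known, so the gap to these shares is a description only. The median log2 ratio was -0.77 over the 8 genes and -0.03 over all genes. The genes thus fell into those well below the wild-type level, at 2.32-fold to 9.74-fold, and those within 1.5-fold of it, among them the receptor, Cpt1a and Ehhadh. In the deeper Cox10-/- nuclei the same 4 genes were lower and none was higher, beside 13.3% and 15.2% of 11267 genes. Mean members detected per nucleus, after thinning, were 1.66 in Cox10-/- and 2.65 in wild-type hepatocyte-like nuclei.

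**Figure D2:**
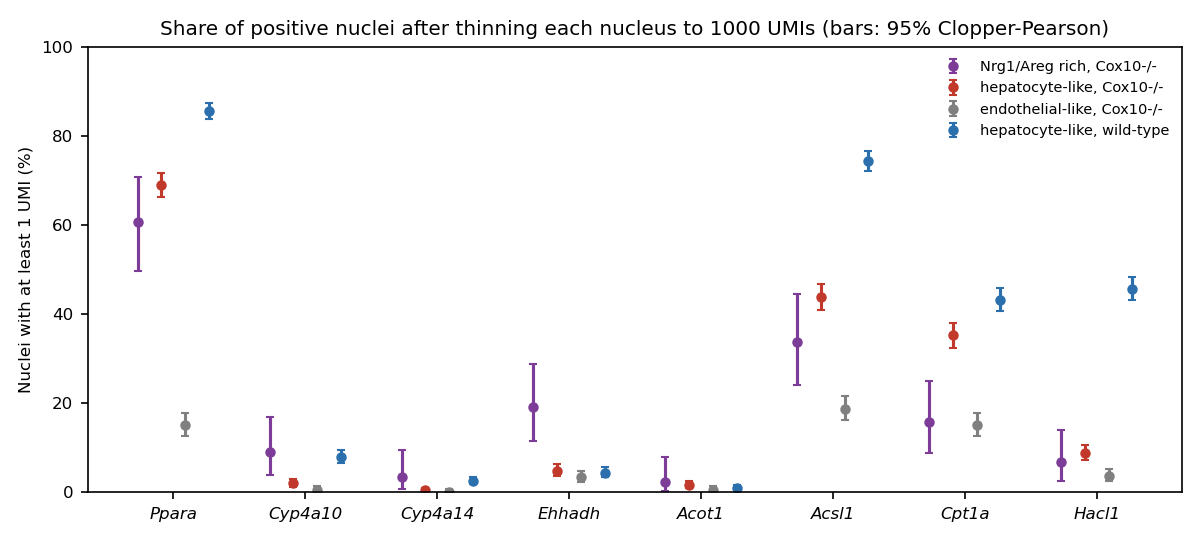
Share of nuclei (%) with at least 1 UMI of each gene after thinning to 1000 UMIs, with 95% Clopper-Pearson intervals, in Nrg1 and Areg rich, hepatocyte-like and endothelial-like Cox10-/- nuclei and in wild-type hepatocyte-like nuclei. Hacl1 was seen in 8.87% of Cox10-/- and 45.8% of wild-type hepatocyte-like nuclei, the widest gap between them.

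The regions upstream of 2 members that parted ways, Acsl1 (lower) and Ehhadh (level), were read for the letters that PPAR-alpha with its partner is known to bind, a direct repeat of AGGTCA with 1 base between, AGGTCANAGGTCA. Each is the 250 bases before a RefSeq start on GRCm38.p6, 5′ to 3′ on the gene's strand, at chr8:46470787-46471036 (plus strand) for Acsl1 and chr16:21787835-21788084 (minus strand) for Ehhadh. In the Ehhadh sequence capitals mark the 13 bases closest to the repeat, with 4 mismatches. In the Acsl1 sequence the closest stretches had 5 mismatches and none is marked. The closest stretches also had 4 mismatches for Ppara, Cpt1a and Acot1, and 5 for Hacl1. The share of all promoters with a stretch at 4 or 5 mismatches was not counted, so nothing is drawn from the marked stretch.
Acsl1: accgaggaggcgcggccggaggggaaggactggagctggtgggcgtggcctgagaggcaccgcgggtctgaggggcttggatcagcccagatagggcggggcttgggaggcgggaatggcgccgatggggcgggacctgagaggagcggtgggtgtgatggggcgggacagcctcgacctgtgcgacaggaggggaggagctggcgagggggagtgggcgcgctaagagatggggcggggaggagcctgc
Ehhadh: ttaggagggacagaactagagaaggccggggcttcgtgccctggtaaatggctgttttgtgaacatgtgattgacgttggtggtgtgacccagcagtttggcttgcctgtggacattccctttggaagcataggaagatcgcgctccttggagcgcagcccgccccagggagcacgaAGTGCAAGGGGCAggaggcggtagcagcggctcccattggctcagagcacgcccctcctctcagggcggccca
Neither holds AGGTCA on either strand, which 14.0% of 32851 such promoters do, and the full repeat with at most 3 mismatches is in 21.3% of them. That says only that these letters are not in these windows. RefSeq gives Acsl1 a second start, whose 250 bases (chr8:46490716-46490965, not printed) also lack AGGTCA. Of the other matched members, Cpt1a, which was within 1.5-fold between libraries, has 1 AGGTCA in its window, and Ppara, Hacl1 and Acot1 have 0. Promoter sequence was matched for 6 of the 8 genes, not including Cyp4a10 and Cyp4a14.

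The wider pathway held genes on both sides. In 10 lists by role, which hold 143 genes including the 8, 135 genes had at least 20 UMIs. Of these 29 were at least 1.5-fold lower and 23 higher in Cox10-/- hepatocyte-like nuclei, with a median log2 ratio of -0.21, beside 14.4% of all genes lower and 18.7% higher, with a median of -0.03. Without the shallow cluster 29 of 134 were lower and 14 higher, beside 13.3% and 15.2% of all genes. The counts of the single lists that follow are to be read against these shares, and several small lists lie near them. Like the 8 genes, which these counts include, the lists were chosen with earlier results of these data known. The omega-oxidation list stood lowest, with 7 of 14 lower and 2 higher (median -0.68). Besides Cyp4a10 and Cyp4a14, Cyp4a12b was 6.45-fold lower (2.99 to 16.6), at 1.68 CPM in Cox10-/- and 10.8 CPM in wild-type nuclei, although 37.0% of its 3' words recur in Cyp4a12a. Cyp4v3, of a related cytochrome family, was at 274.8 CPM in Cox10-/- and 134.4 CPM in wild-type nuclei, a ratio of 2.05 (1.88 to 2.23), named after its value was seen.

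Peroxisomal beta-oxidation had 3 of 18 lower and 2 higher (median -0.28). Nudt7, a peroxisomal hydrolase of coenzyme A and its esters, was 3.81-fold lower (3.42 to 4.25), at 91.7 CPM in Cox10-/- and 349.1 CPM in wild-type nuclei. The peroxisomal fatty acid transporters Abcd2 and Abcd3 were 2.04-fold and 1.80-fold lower. In the alpha-oxidation list of 5, Hacl1 was the only gene lower. Aldh3a2, the fatty aldehyde dehydrogenase that acts after it, was the only one higher, at 95.03 CPM in Cox10-/- and 46.8 CPM in wild-type nuclei (ratio 2.03, 1.75 to 2.36). Slc27a2, a very long-chain acyl-CoA synthetase of the same list, had a ratio of 0.724.

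Mitochondrial beta-oxidation had 4 of 21 lower and 3 higher (median -0.24). Etfb, a subunit of the electron carrier of acyl-CoA dehydrogenases, was at 138.1 CPM in Cox10-/- and 54.6 CPM in wild-type nuclei (ratio 2.53), and the short-chain dehydrogenase Acads had a ratio of 2.16. Eci1, an enoyl-CoA isomerase, was 1.79-fold lower. Uptake and activation had 5 of 18 lower and 4 higher. There Acss2, which makes acetyl-CoA from acetate, was 2.72-fold lower and Dbi, the acyl-CoA binding protein, 2.58-fold higher. The carnitine shuttle had 2 of 7 lower and 0 higher: Crat (1.98-fold lower) and Cpt1b (1.61-fold, 0.934 to 2.88), with Cpt2 at a ratio of 0.759. Ketone body synthesis had 2 of 7 lower (Slc16a6, a ketone body transporter, 1.99-fold, and Acat1, 1.502-fold) and 1 higher, the monocarboxylate transporter Slc16a1 (ratio 1.60). In the deeper nuclei alone uptake and activation had 2 higher and 5 lower, peroxisomal beta-oxidation 0 higher and 4 lower, the carnitine shuttle 1 lower, and ketone body synthesis 0 higher and 2 lower.

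PPAR-alpha targets outside oxidation had 8 of 21 higher and 2 lower (median 0.16). In the deeper nuclei alone 6 were higher and 2 lower, and the median was -0.009, beside -0.012 over all genes. Cd36, a fatty acid translocase, was at 34.9 CPM in Cox10-/- and 3.37 CPM in wild-type nuclei, a ratio of 10.4 (6.70 to 16.7). Pdk4, the kinase that shuts down pyruvate dehydrogenase, was at 19.2 CPM in Cox10-/- and 2.81 CPM in wild-type nuclei (ratio 6.82, 4.14 to 11.8). Vnn3, a pantetheinase, was 4.86-fold lower. Among 11 thioesterases 2 were higher and 2 lower: Acot2, the mitochondrial relative of Acot1, had 18 UMIs in Cox10-/- and 2 in wild-type nuclei (ratio 15.3, 3.67 to 136), Acot9 a ratio of 3.03 (1.26 to 7.78), and Acot11 was 3.01-fold lower. Receptor partners and cofactors mostly lay within 1.5-fold, with 16 of 19 between the limits. The exceptions were Pparg (ratio 2.74), Ppargc1a, the coactivator PGC-1alpha (685.3 CPM in Cox10-/- and 368.5 CPM in wild-type nuclei, ratio 1.86), and Rxrg, 2.87-fold lower on 9 and 44 UMIs. PPAR-alpha targets thus stood on both sides within the same libraries, but no floor is given here for Cd36, Pdk4 or Acot2. Nrg1, which marks another Cox10-/- cluster described below, was also higher in these sums, at 42.1 CPM in Cox10-/- and 3.79 CPM in wild-type nuclei. Hepatocyte-like nuclei made up 37.3% of the kept Cox10-/- and 97.4% of the kept wild-type nuclei. Whether RNA from other nuclei adds to such ratios was not tested.

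**Figure D3:**
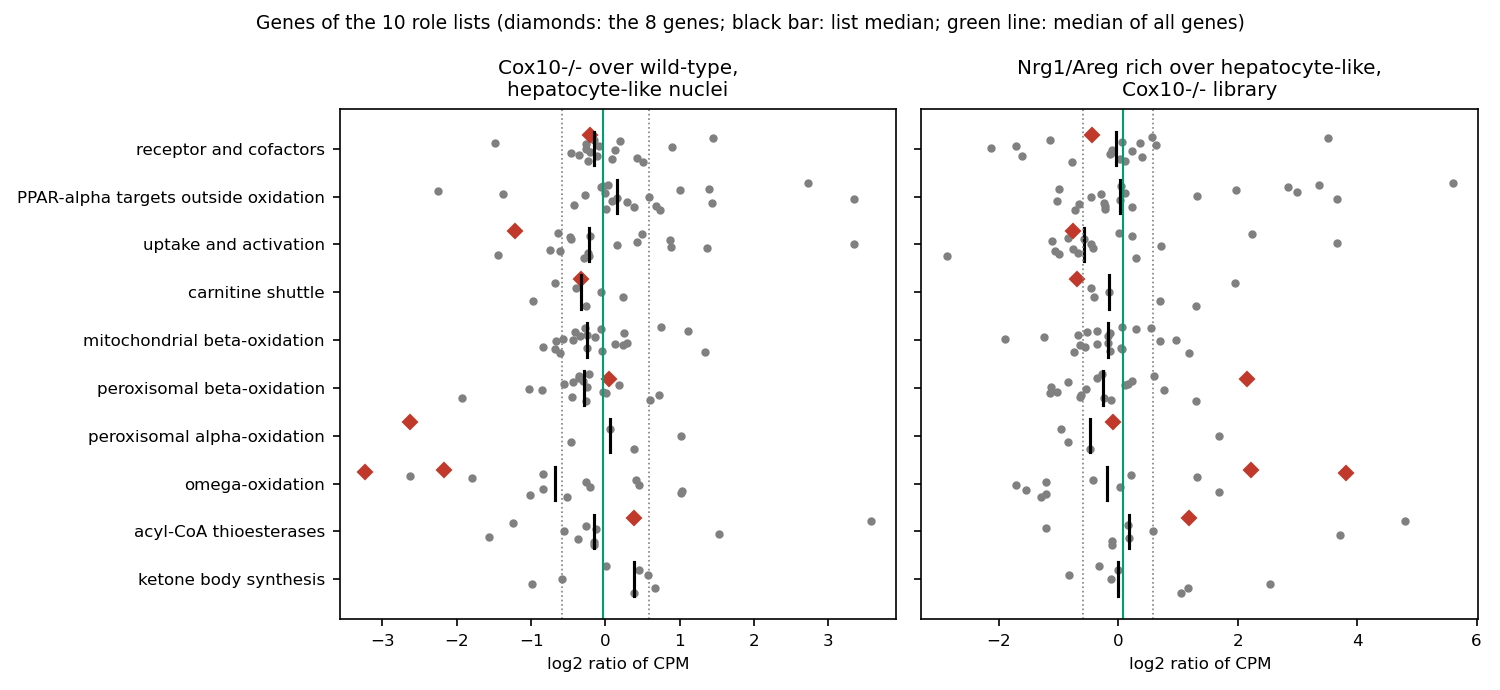
Log2 ratio of CPM for each gene of the 10 role lists (grey points; diamonds, the 8 genes; black bars, list medians; green line, median of all genes; dotted lines, 1.5-fold), for Cox10-/- over wild-type hepatocyte-like nuclei and for Nrg1 and Areg rich over hepatocyte-like nuclei of the Cox10-/- library. In the first panel the omega-oxidation median lies at -0.68 and those of the other lists between -0.33 and 0.38.

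Hepatocytes divide fatty acid and nitrogen work along the lobule, from the portal vein to the central vein. Nuclei were scored by 16 pericentral and 12 periportal markers and cut into 3 equal bins within each library. All 16 pericentral and 11 of the 12 periportal markers were higher in their own outer bin in each library, Cps1 being the exception in both. The score was made from these markers, so this was largely fixed by construction and does not check the bins. The bins are ranges of a score, with 15.1% of Cox10-/- and 16.6% of wild-type nuclei within 0.1 SD of a cut. In the Cox10-/- library depth moved with the bins: shallow nuclei made up 46.2% of the pericentral, 55.1% of the middle and 14.8% of the periportal bin.

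The 4 lower genes were lower in every bin, so no bin carried the gap alone. Hacl1 was at 119.1 CPM in Cox10-/- and 571.7 CPM in wild-type nuclei of the pericentral bin (4.80-fold lower, 4.06 to 5.72), at 96.5 and 610.8 CPM in the middle bin (6.33-fold), and at 93.0 and 705.1 CPM in the periportal bin (7.58-fold, 6.48 to 8.92). Acsl1 was 2.25-fold, 2.46-fold and 2.29-fold lower in the same order of bins. Cyp4a10 was 3.58-fold (2.62 to 4.99), 4.54-fold and 5.75-fold (3.59 to 9.69) lower. Cyp4a14 had 5, 2 and 3 UMIs in the Cox10-/- bins, against 55, 69 and 42 in the wild-type ones. Beside the 4 of 8 lower genes, 15.8%, 18.1% and 13.6% of all genes were lower in these bins. Acot1 passed 1.5-fold upward in the pericentral and middle bins, on 26 and 29 UMIs and on 12 and 16 UMIs in Cox10-/- and wild-type nuclei, with intervals that include 1 (0.970 to 3.02 and 0.725 to 3.78), beside 19.8% and 20% of all genes higher there.

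**Figure D4:**
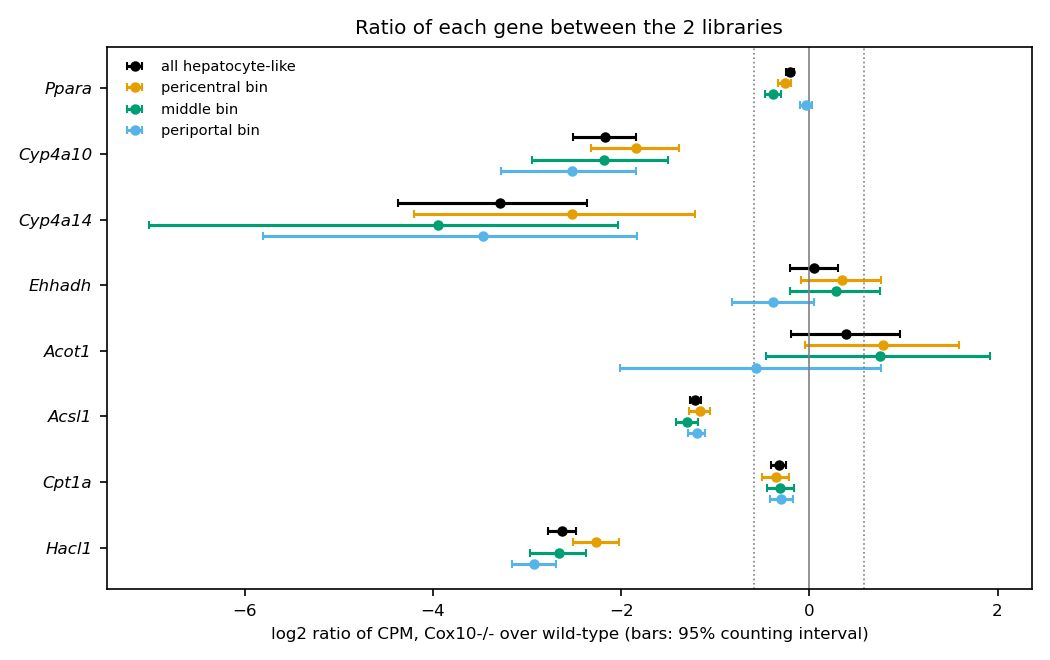
Log2 ratio of CPM, Cox10-/- over wild-type, for each gene in all hepatocyte-like nuclei and in the pericentral, middle and periportal bins, with 95% counting intervals (dotted lines, 1.5-fold). Hacl1, Acsl1, Cyp4a10 and Cyp4a14 lie left of the lower line in every bin, and Ppara, Cpt1a and Ehhadh between the lines.

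Within each library Cyp4a10 was higher toward the pericentral end of the score. In Cox10-/- nuclei it was at 36.5 CPM in the pericentral bin (26.7 to 48.7, 46 UMIs) and 10.7 CPM in the periportal bin (6.57 to 16.6, 20 UMIs), a ratio of 3.40 (1.97 to 6.06). In wild-type nuclei it was at 130.8 CPM (116.7 to 146.1) in the pericentral and 61.8 CPM (52.2 to 72.7) in the periportal bin, a ratio of 2.12 (1.73 to 2.59). The pericentral side was the higher one in each, and the Cox10-/- pericentral level stayed below the wild-type periportal one. By cluster the same order held. Wild-type cluster 7, led by the pericentral genes Slc1a2, Lhpp and Tbx3, held 198.2 CPM, against 69.4 CPM in wild-type cluster 1, led by Grm8, Cyp17a1 and Hal among others. A Cox10-/- cluster of 64 nuclei led by Meg3, Lgr5 and Glul held 50.7 CPM (31.0 to 78.3), against 16.9 CPM in the largest Cox10-/- hepatocyte-like cluster. Cyp4a10 is itself among the leading genes of wild-type cluster 7, so that cluster's value is a description.

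Acot1 leaned the same way, at 20.6 CPM in the pericentral and 4.30 CPM in the periportal bin of the Cox10-/- library (26 and 8 UMIs, ratio 4.80, 2.11 to 12.3) and at 12.0 and 6.39 CPM in the wild-type one (29 and 15 UMIs, ratio 1.88, 0.977 to 3.78). Ehhadh was at 62.7 CPM in the pericentral and 39.2 CPM in the periportal bin of the Cox10-/- library (ratio 1.60, 1.15 to 2.23), and at 49.4 and 51.2 CPM in the wild-type library (ratio 0.966, 0.743 to 1.26). Acot1 and Ehhadh are the members nearest to the level of other cell types, and the shallow nuclei, higher in Ehhadh, were more frequent in the pericentral bin. Without the shallow nuclei the Cox10-/- log2 ratio of pericentral over periportal was 0.36 for Ehhadh, under the 1.5-fold limit, 2.55 for Acot1 and 1.57 for Cyp4a10. Hacl1 was at 119.1 CPM in the pericentral and 93.0 CPM in the periportal bin of the Cox10-/- library (ratio 1.28, 1.02 to 1.60), and at 571.7 and 705.1 CPM in the wild-type one (ratio 0.811, 0.754 to 0.872). Ppara was flat in Cox10-/- nuclei (1836 CPM pericentral, 1876 CPM periportal, ratio 0.979) and slightly pericentral in wild-type nuclei (2201 and 1923 CPM, ratio 1.15, 1.10 to 1.19). Acsl1 and Cpt1a had ratios of 0.999 and 0.981 in Cox10-/- and 0.978 and 1.02 in wild-type nuclei. In Cox10-/- nuclei 3 of the 7 members with at least 20 UMIs were higher in the pericentral bin, beside 11.0% of all genes, and 0 lower, beside 9.29%. In wild-type nuclei 2 of 8 were higher, beside 6.33%, and 0 lower, beside 8.48%. With every nucleus thinned to 1000 UMIs the Cox10-/- count was 1 (Ehhadh), with Cyp4a10 and Acot1 under 20 UMIs.

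**Figure D5:**
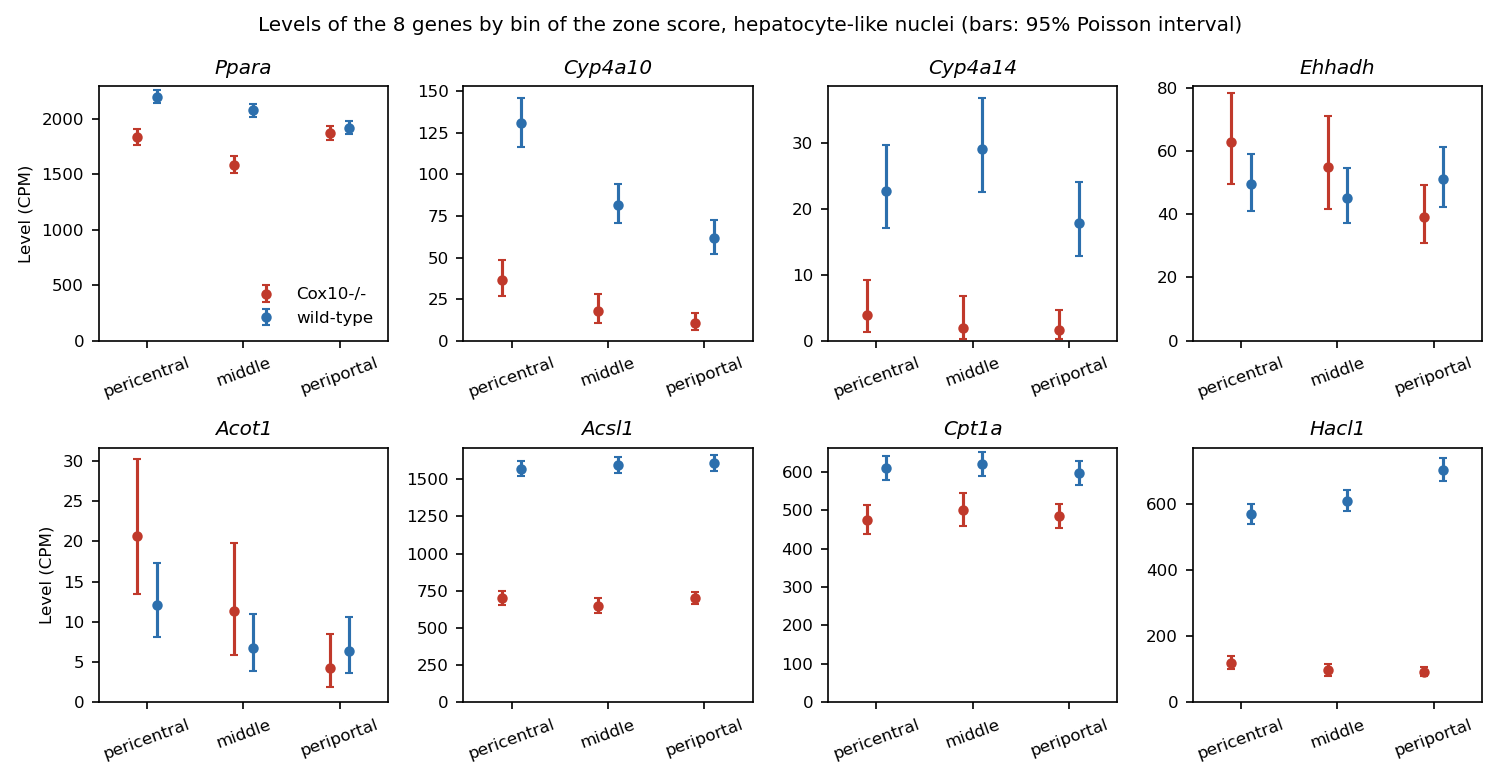
Level in CPM (linear axes from 0, 95% Poisson intervals) of each gene in the pericentral, middle and periportal bins of Cox10-/- and wild-type hepatocyte-like nuclei. Cyp4a10 is highest in the pericentral bin of each library (36.5 CPM in Cox10-/- and 130.8 CPM in wild-type nuclei), while Acsl1 and Cpt1a are level across bins.

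A cluster of 89 Cox10-/- nuclei and 1 wild-type nucleus was rich in Nrg1 and Areg, which encode growth factors of the epidermal growth factor family. It was picked because both are among its 20 leading genes, with Nrg1 at 1731 CPM in these nuclei and 42.1 CPM in Cox10-/- hepatocyte-like nuclei, and Areg at 510.7 and 7.18 CPM. Its median of 4783 UMIs was above that of Cox10-/- hepatocyte-like nuclei. Cps1, a defining hepatocyte gene, was at 1933 CPM here, against 9693 CPM in hepatocyte-like and 1847 CPM in endothelial-like nuclei of the library. By that marker alone these nuclei stood near the endothelial-like ones. The cluster was named for Nrg1 and Areg by rule, whatever its cell type markers, and was given no cell type. Its summed markers, as log2 over all other nuclei, were at 1.14 for bile duct cells (cholangiocytes) and -4.685 for endothelial cells, and negative for the other non-hepatocyte classes. The mean log2 ratio of its hepatocyte markers over nuclei named as other cell types was -0.23. The same mean ran from 0.079 to 0.395 over the hepatocyte-like clusters, apart from the shallow one, which was higher. Over the clusters named as other cell types it ran from -0.405 to 0.273, with 0.091 in the endothelial-like one. These ranges overlap, so this mean does not clearly separate hepatocyte-like from other nuclei. Ppara, at 1321 CPM (1216 to 1434, found in 96.6% of the nuclei), was far above the 164.6 CPM of endothelial-like nuclei. The members' values in this cluster describe nuclei sorted by their own expression, although the 8 genes and the role lists were left out of the clustering.

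The members differed in direction here. Cyp4a10 was at 96.2 CPM in the Nrg1 and Areg rich nuclei (69.3 to 130.0, 42 UMIs in 20 nuclei) and 20.4 CPM in Cox10-/- hepatocyte-like nuclei, 4.73-fold higher (3.19 to 6.92). A single nucleus gave 7 of those 42 UMIs. Cyp4a14 was at 36.6 CPM (20.9 to 59.5), against 2.39 CPM, 15.3-fold higher (6.53 to 37.7), on 16 UMIs in 7 nuclei, 5 of them from a single nucleus. Ehhadh was at 224.4 CPM (182.2 to 273.5), against 50.3 CPM, 4.46-fold higher (3.48 to 5.70), and was seen in 50.6% of these nuclei, with 15 of its 98 UMIs from a single nucleus. Its thinned share was 19.1% (11.5 to 28.8), against 4.88% in hepatocyte-like and 3.39% in endothelial-like nuclei of the library. Acot1 was at 25.2 CPM on 11 UMIs, against 11.01 CPM (ratio 2.29, 1.07 to 4.48). The call of Acot1 was lost when nuclei were thinned to 1000 UMIs, at a log2 ratio of 0.40, against 1.18 without thinning.

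The other members were level or lower. Acsl1 was at 405.3 CPM, against 687.3 CPM (1.70-fold lower, 1.46 to 1.99), and Cpt1a at 300 CPM, against 485.2 CPM (1.62-fold lower, 1.36 to 1.95). Ppara itself had a ratio of 0.738 (0.677 to 0.803). Hacl1 stayed at the low level of the library, with 96.2 CPM, against 101.7 CPM (ratio 0.945, 0.671 to 1.30). By the 1.5-fold limit 4 of 8 members were higher and 2 lower, beside 27.7% and 23.6% of 9905 genes. Against the deeper hepatocyte-like nuclei, which are close in depth, the counts were the same, beside 27.1% and 21.9%. With every nucleus thinned to 1000 UMIs 2 members were higher (Cyp4a10 and Ehhadh), with Cyp4a14 under 20 UMIs and Acot1 within 1.5-fold.

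Set beside wild-type hepatocyte-like nuclei, the Nrg1 and Areg rich nuclei held Cyp4a10 at a like level (96.2 and 91.7 CPM, ratio 1.05, 0.749 to 1.43) and Ehhadh 4.62-fold higher (3.65 to 5.80). Hacl1 was 6.54-fold lower (4.83 to 9.08), Acsl1 3.93-fold and Cpt1a 2.03-fold lower than in wild-type nuclei. By the limit 3 of 8 were higher and 4 lower, beside 30.8% and 26.1% of 10670 genes. The low Hacl1 level was thus shared by both kinds of Cox10-/- nuclei, whereas the low Cyp4a10 level was not. That Cyp4a10 level rests on 20 positive nuclei of 89, in a cluster that was given no cell type.

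Over the 10 lists 30 of 128 pathway genes were higher and 37 lower in the Nrg1 and Areg rich nuclei than in Cox10-/- hepatocyte-like nuclei (median -0.13, and 0.09 over all genes), beside 27.7% of all genes higher and 23.6% lower. The following genes were named after their values were seen. Pdk4, a leading gene of the cluster, was at 941.2 CPM, against 19.2 CPM, and Acot2, another, at 125.9 CPM, against 4.31 CPM. Of the lipid droplet genes in the lists, Plin2 was at 1314 CPM, against 183.4 CPM, Cidec at 98.5 CPM, against 12.2 CPM, and Plin4 at 66.4 CPM, against 16.8 CPM. Plin5 was lower, at 32.1 CPM, against 64.2 CPM, as was Cideb, at 25.2 CPM, against 41.6 CPM, while G0s2, Pnpla2 and Fitm2 were within 1.5-fold. Cd36 stood at 446.5 CPM, against 34.9 CPM, and Fgf21, a fasting hormone of liver, at 38.9 CPM, against 3.59 CPM on 17 and 15 UMIs. Pparg, the receptor of the same family best known from fat cells, was at 247.3 CPM, against 21.5 CPM (ratio 11.5, 8.60 to 15.4). The coactivator genes Ppargc1b, Ppargc1a and Lpin1 were 4.39-fold, 3.29-fold and 3.07-fold lower, and the partner receptor Rxra 2.20-fold lower. The whole list of receptors and cofactors had 2 of 18 higher, 5 lower and 11 between the limits (median -0.04).

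Over 10 groups of nuclei (3 score bins per library, and the Nrg1 and Areg rich, endothelial-like, stellate-like and myeloid-like nuclei of the Cox10-/- library) the members did not share 1 pattern. As a description over points that share libraries and depth, Pearson's r of log2(CPM + 1) was 0.97 between Ppara and Cpt1a, 0.97 between Hacl1 and Acsl1, 0.93 between Cyp4a10 and Cyp4a14, and 0.79 between Ehhadh and Acot1. It was only 0.17 between Ehhadh and Hacl1. Among 7916 genes the closest to Ppara were Adk, Echdc2 and Ppm1b (r from 0.999 to 0.997), and to Cpt1a Rgs16, 9030622O22Rik and Pcyt2 (0.998 to 0.996). Hacl1 was closest to Onecut1 (0.988), Hhex and Slco1a1, and Acsl1 to Cep44 (0.991), Abhd18 and Gm48633. Cyp4a10 was closest to Cyp2c67 (0.973), Ddc and Zkscan5, and Cyp4a14 to Slc25a30 (0.949), Mecr and Cyp4a10. For Ehhadh they were Mindy1 (0.976), Yars and Trib3.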

How the data were processed

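The deposited table held raw counts (UMIs per gene and nucleus) of both libraries. Per the labels' protocols, nuclei were loaded at 7000 per sample on a 10x 3' kit, and the submitters' processing notes name Cell Ranger 7.0 and mm10. The deposited nuclei had 601 to 3999 genes and at most 19.99% mitochondrially encoded UMIs. The nuclei that passed (500 UMIs or more, 300 genes or more, mitochondrially encoded share up to 10%) were clustered with scanpy 1.11.5 (2000 variable genes without the pathway lists, 30 components, 15 neighbours, Leiden resolution 1.0) under Python 3.11.15. Clusters were named from marker lists, with naming thresholds set after the data were seen, and doublets were not removed. A floor of nuclei of other cell types came from clustering the whole deposited table.

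UMIs were summed per group and divided by the group's total (CPM). Ratios carry exact conditional binomial intervals, CPM Poisson intervals and shares Clopper-Pearson intervals, all at 95% and for counting error only, since 1 library per group allows no test. A gene with at least 20 UMIs over both sums was counted as higher or lower at 1.5-fold, and log2 ratios used a prior of 0.5 UMIs scaled to each sum. The zone score was the mean z of pericentral minus that of periportal markers, within library. Library sizes were also scaled with edgeR 4.0.16 (TMM) and DESeq2 1.42.0 (size factors) as alternatives. The ratio and interval code was tested on simulated counts.

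The members and lists were chosen with earlier results of these data known. Named genes were the 8 members, Cox10, up to 3 genes with the largest absolute log2 ratio in each list, and the 3 genes closest to each member, which for Acot1 are not reported here. Genes named outside this rule are marked as such.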

Additional observations from a re-analysis of the deposited data

Results flagged for a closer look

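The zone ratio of Hacl1 lay on opposite sides in the 2 libraries. Its log2 ratio of pericentral over periportal bin was 0.36 in Cox10-/- and -0.30 in wild-type hepatocyte-like nuclei, a difference of 0.658, with counting intervals that do not overlap (ratios of 1.02 to 1.60 and 0.754 to 0.872). The difference was not tested, as there is 1 library per group. Without the shallow nuclei the Cox10-/- value was 0.55, and with every nucleus thinned to 1000 UMIs it was -0.13.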

How the results depend on the processing

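The 4 members lower in Cox10-/- hepatocyte-like nuclei were counted as lower under every alternative that gave a value, with log2 ratios of -2.27 to -1.98 for Cyp4a10, -3.54 to -2.59 for Cyp4a14, -2.75 to -2.57 for Hacl1 and -1.34 to -1.16 for Acsl1. Ehhadh ran from -0.14 to 0.36, Acot1 from 0.27 to 0.61, Cpt1a from -0.44 to -0.28 and Ppara from -0.54 to -0.07. The count of higher members was 0, but 1 (Acot1) with the mean of CPM over nuclei. The count of higher pathway genes was 23, but 14 with at least 1000 genes per nucleus and 14 with the shallow cluster left out. The count of members higher in the wild-type pericentral bin was 2, but 1 with narrower outer bins and 1 with zone markers without Cyp2e1 and Cps1, since Acot1 was then at 0.53 under each. Thinning to 1000 UMIs gave 1 in place of 3 in the Cox10-/- bins and 2 in place of 4 in the Nrg1 and Areg rich nuclei, where members were under 20 UMIs or, for Acot1, at 0.40. Of 298 values under alternatives 272 moved by less than their counting interval, 26 by more, and 0 changed the sign of a called value. Scalings placed the median log2 ratio of all genes between -0.08 and -0.03. A limit of 1% mitochondrially encoded UMIs left 10 Cox10-/- and 0 wild-type nuclei and gave no value. Leaving out the nucleus richest in each member was added after the data were seen. No paired analysis was possible because each group has 1 library. Depth limits Cyp4a14 and Acot1 most, with 10 and 46 UMIs in Cox10-/- hepatocyte-like nuclei.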
